A study of Mus musculus with 10 samples.

Results

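The genes described here encode the moving parts and the track of microtubule transport: the kinesins with their light chains, the subunits of cytoplasmic dynein and of dynactin, and the alpha, beta and gamma tubulins. They were chosen by gene symbol, as Kif or Kifc followed by a number, Klc followed by a number, a name that starts with Dync, Dctn followed by a number, or Tuba, Tubb or Tubg followed by a number, without the -ps pseudogenes. The rule found 78 genes among the 53801 identifiers of the count table, and 77 of them are annotated as protein coding. It also took in *Kif16bos*, an antisense RNA named after its neighbour *Kif16b*, and *Kif1bp*, a protein that binds kinesins and is no kinesin itself, and both were kept in the counts below. The cells were AtT20/D16v-F2, a mouse corticotroph line derived from a pituitary tumour. Poly(A) RNA was sequenced from 5 libraries of a line that expressed a non-targeting shRNA (short hairpin RNA) and from 5 libraries of a line that expressed a *Creb3l1* shRNA, and both shRNAs were delivered by lentivirus and were stably expressed. *Creb3l1* is a transcription factor held in the endoplasmic reticulum membrane until it is cleaved, and the study made the knockdown to look for genes under its control. Each shRNA was represented by 1 stable line, so the effect of the knockdown and any other difference between the 2 lines cannot be told apart, and the p-values below measure the spread between libraries of those lines.

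Microtubules are hollow tubes built from pairs of alpha and beta tubulin, and gamma tubulin starts their growth at the centrosome and at the Golgi. Most kinesins walk towards the plus end, which in secretory cells usually points to the plasma membrane, and cytoplasmic dynein with its activator dynactin walks back towards the cell centre. In endocrine cells these motors carry hormone granules, endosomes and mitochondria, and in dividing cells another set of kinesins builds the spindle and completes cytokinesis.

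The 2 shRNA sequences are shown because they define the lines, and both were taken from the oligonucleotide table of the study.
Creb3l1-shRNA1: gagtcggatttcctcaacaat
Non-targeting shRNA: atcatgttaggcgtacggact
The 21 bases of *Creb3l1*-shRNA1 matched bases 476 to 496 of the 2603-base *Creb3l1* transcript in the GENCODE M21 annotation and no transcript of another gene. Neither sequence had a full match in the 420 annotated transcripts of the 78 genes. Partial matches and the opposite strand were not searched, so effects of the shRNAs on other transcripts were not tested. *Creb3l1* itself (chromosome 2, 91982328 to 92024502, minus strand of GRCm38) had between 3531 and 3864 normalised counts in the non-targeting libraries and between 1014 and 1159 in the *Creb3l1* shRNA libraries, so the groups did not overlap. Its log2 fold change was -1.76 ± 0.036 (SE, n = 5 per line, adjusted p = 2.1e-33).

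Normalised counts are the deposited counts divided by the effective size of the library and multiplied by the mean effective size. Between 17420698 and 22205107 reads were counted per library. Non-targeting replicate 3 stood apart in *Gm42418*, a gene chosen after its values were seen, which took 4.13% of its counts and between 0.106% and 0.191% of those of the other libraries. Without this library 26 of the 30 calls given below kept their direction, and those of *Tubb2b*, *Kif24*, *Kif27* and *Kifc3* were lost. Of the 53801 identifiers, 14336 had enough counts to be tested, and they were tested with edgeR (quasi-likelihood). P-values were adjusted over all of these genes by the Benjamini-Hochberg method, and a gene was called at an adjusted p under 0.01. A log2 fold change is that of the *Creb3l1* shRNA line over the non-targeting line throughout. All 6 corticotroph markers examined (*Pomc*, *Tbx19*, *Pcsk1*, *Neurod1*, *Pitx1* and *Crhr1*) had enough counts to be tested. Their summed normalised count was between 150400 and 161500 in the non-targeting libraries and between 108500 and 115400 in the *Creb3l1* shRNA libraries, a sum made up mostly of *Pomc*. They did not move together: *Pomc* (log2 fold change -0.51), *Tbx19* (-0.27) and *Pcsk1* (-0.46) were called lower, *Neurod1* (0.62) and *Pitx1* (0.36) were called higher, and *Crhr1* was not called. Of 8 markers of other pituitary hormone cells none was tested, 5 were at 0 in all libraries (*Prl*, *Tshb*, *Fshb*, *Pou1f1* and *Gnrhr*), and their sum reached at most 9.09. Endothelial *Cdh5* and *Kdr* and leukocyte *Ptprc* and *Adgre1* were at 0 as well, and the summed endothelial and leukocyte lists reached at most 18.3 and 51.9. The 4 fibroblast markers summed to between 814.1 and 1153 in the non-targeting libraries and between 942.7 and 1681 in the *Creb3l1* shRNA libraries. Nearly all of that sum was *Col1a1* (mean 716.8 and 935) and *Col1a2* (mean 211 and 281.7), neither of them called. *Pdgfra* reached at most 12.8 and *Dcn* at most 1.06, and neither was tested. The part of all these marker differences in the results below was not tested. In such bulk RNA, fewer cells of a kind and less RNA per cell cannot be told apart.

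Of the 78 genes, 70 were tested and 30 of these were called, 15 higher and 15 lower in the *Creb3l1* shRNA line. That is 42.9% of those tested, close to the 40.7% of all genes tested. Over all genes tested, 20.6% were called higher and 20.1% lower. The counts of each group and list below stand beside these shares. The changes were small: the median of the absolute log2 fold change was 0.10 over these genes and 0.15 over all genes tested, and the median log2 fold change was -0.036 and -0.002. Of the 70, 5 were called with a change of at least 1.5-fold, or 7.14%, close to the 7.73% of all genes tested. *Kif26a* and *Kif27* were higher, and *Kif19a*, *Kif12* and *Kifc2* were lower. For 26 of the 70 genes every library of 1 line lay above every library of the other, beside 36% of all genes tested. The plot of fold change by group shows these 5 kinesins apart from a field in which nearly all other genes lay within 0.5 of 0 on the log2 scale.

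**Figure D1:**
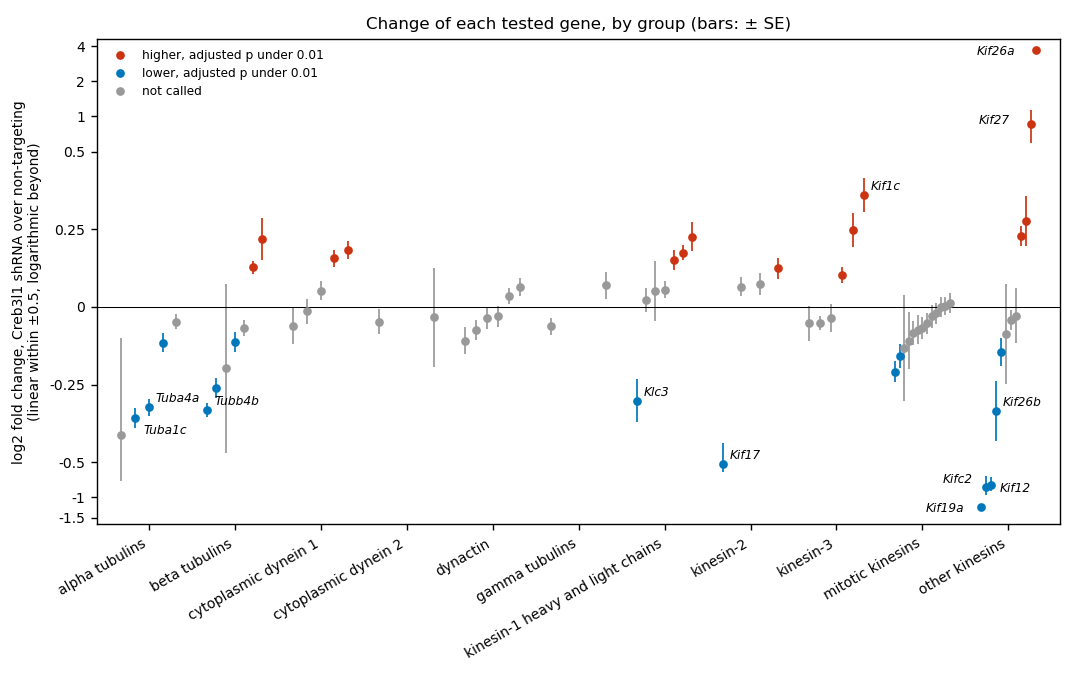
Log2 fold change (*Creb3l1* shRNA over non-targeting, ± SE, n = 5 libraries per line) of each tested gene, by group; the axis is linear within ±0.5 and logarithmic beyond. Red and blue points are genes called higher or lower at an adjusted p under 0.01, grey points were not called, and *Kif26a* stands at 3.71 and *Kif19a* at -1.22.

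Levels were compared between genes as CPM (counts scaled to the library size) per kb of exon. In the non-targeting line *Tuba1a* was highest at 467 ± 13.0 (SD, n = 5), followed by *Tubb5* at 384 ± 8.7, *Tubb4b* at 350 ± 8.2, *Tubb3* at 219 ± 2.6 and *Tubg1* at 116 ± 2.0. On this scale the gaps between these neighbours were larger than their spread. Per kb of the longest transcript the first 3 were not separated beyond their spread, with *Tubb5* at 482 ± 11.0, *Tuba1a* at 467 ± 13.0 and *Tubb4b* at 457 ± 11.0. Per kb of exon the most abundant motor genes were *Kif1a* at 75.1 ± 1.9, *Klc1* at 70.4 ± 0.89, *Dctn3* at 69.4 ± 2.1 and *Dync1h1* at 62.1 ± 2.4. Among these, *Kif1a* lay beyond the spread of *Klc1*, while *Klc1* and *Dctn3* did not differ beyond theirs. This order also depended on the length used, since per kb of the longest transcript *Klc1* came first at 114 ± 1.4, ahead of *Kif1a* at 85.4 ± 2.2 and *Dctn3* at 74.3 ± 2.2. The plot of levels shows each group spanning about the same heights in both lines, apart from *Kif26a*, which moved from 2.46 ± 0.13 to 32.3 ± 0.98 and so from the level of minor kinesins to that of the common ones such as *Kif5c* (33.4 ± 0.34 in the same libraries).

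**Figure D2:**
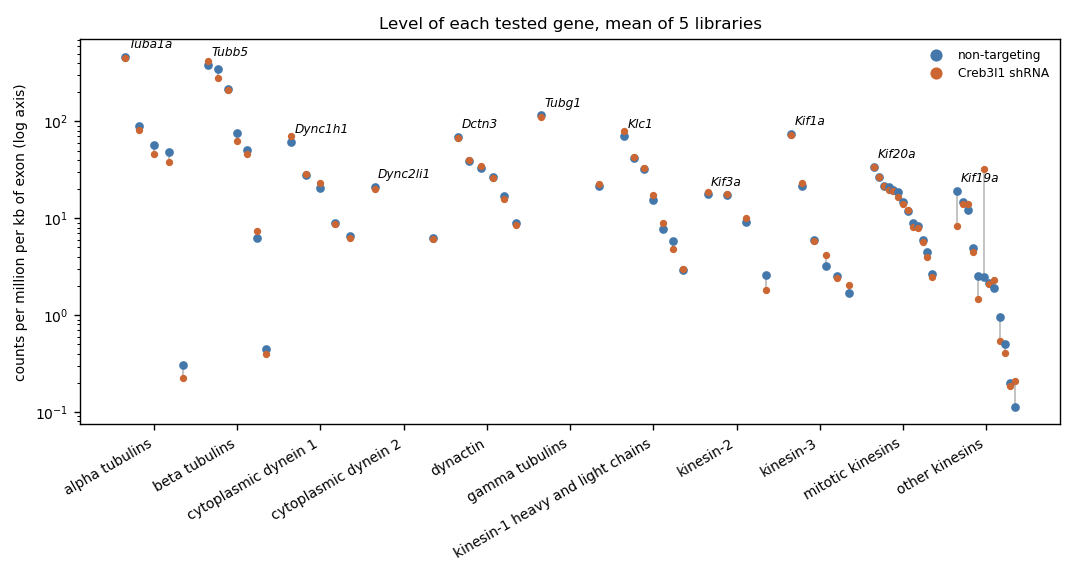
CPM per kb of exon (log axis, mean of 5 libraries) of each tested gene, by group, in the non-targeting (blue) and *Creb3l1* shRNA (orange) lines; the gene with the highest level in each group is named. The grey line joins the 2 values of a gene and is longest for *Kif26a*, then *Kif19a*, with shorter lines for *Kif27*, *Kifc2* and *Kif12*.

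The alpha tubulins were lower or not called, and none was higher. Of 7 genes, 5 were tested and 3 were called lower, beside 20.1% of all genes tested: *Tuba1b*, *Tuba1c* and *Tuba4a*. *Tuba1c* had 2195, 2274, 2272, 2359 and 2247 normalised counts in the non-targeting libraries and 1838, 1798, 1816, 1714 and 1695 in the *Creb3l1* shRNA libraries. Every *Creb3l1* shRNA library was below every control, and the log2 fold change was -0.36 ± 0.032 (adjusted p = 1.7e-12). *Tuba4a*, which unlike most alpha tubulins encodes no final tyrosine, fell from 4284 ± 79.9 to 3424 ± 105.2 normalised counts (log2 fold change -0.32 ± 0.027, adjusted p = 3.2e-13). *Tuba1b* fell by less, from 3377 ± 60.0 to 3119 ± 148 (log2 fold change -0.12 ± 0.030, adjusted p = 0.0012). Its call was lost with offsets for GC content and length, and without *Creb3l1* shRNA replicate 5.

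*Tuba1a*, the major alpha tubulin gene of neurons and here of the AtT20 lines, had 16700, 16890, 17070, 17900 and 16830 normalised counts in the non-targeting libraries and 16840, 16870, 16300, 17050 and 15510 in the *Creb3l1* shRNA libraries. The groups overlapped and the gene was not called (log2 fold change -0.05 ± 0.024, adjusted p = 0.092). Its share of all alpha tubulin counts went from 63.2 ± 0.38% to 66.5 ± 0.50%, and the shares of *Tuba4a* and *Tuba1c* went from 15.9 ± 0.32% to 13.8 ± 0.26% and from 8.40 ± 0.09% to 7.14 ± 0.24%. These 3 shares did not overlap between the lines, and that of *Tuba1b* did (12.5 ± 0.19% and 12.6 ± 0.27%). The summed alpha tubulin count went from 27020 ± 617 to 24840 ± 875 normalised counts with no overlap. This sum was made without offsets for GC content and length. With them the log2 fold changes of *Tuba1a* and *Tuba1b* were 0.039 and -0.017, neither called. Those of *Tuba1c* and *Tuba4a* were -0.265 and -0.273, both still called lower. *Tuba1a*, *Tuba1b* and *Tuba1c* are neighbours on chromosome 15 with nearly the same coding sequence, so the split of reads among them depends on the counting of the authors and is uncertain.

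The beta tubulins changed in both directions. Of 8 genes, 7 were tested and 5 called, beside 40.7% of all genes tested: *Tubb5* and *Tubb2b* higher and *Tubb4b*, *Tubb2a* and *Tubb6* lower. *Tubb5*, the most abundant beta tubulin of these cells and of most dividing cells, had 25760, 25380, 25980, 26860 and 25530 normalised counts in the non-targeting libraries and 27680, 29480, 27690, 28870 and 27660 in the *Creb3l1* shRNA libraries. The groups did not overlap, although the log2 fold change was only 0.13 ± 0.021 (adjusted p = 3.7e-06). *Tubb4b*, also a broadly expressed isotype, had 14630, 15090, 14290, 15120 and 14900 in the non-targeting libraries and 11650, 12090, 11800, 11940 and 11270 in the *Creb3l1* shRNA libraries. All *Creb3l1* shRNA libraries were lower, with a log2 fold change of -0.33 ± 0.023 (adjusted p = 3.9e-16). With offsets for GC content and length the values were -0.23 for *Tubb4b* and 0.18 for *Tubb5*, both still called.

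As shares of the beta tubulin counts, *Tubb5* went from 47.7 ± 0.60% to 53.7 ± 0.47% and *Tubb4b* from 27.3 ± 0.55% to 22.3 ± 0.26%, in each case with no overlap. *Tubb3*, the isotype used as a marker of neurons, had shares that overlapped (15.3 ± 0.26% and 15.0 ± 0.33%). It was not called (log2 fold change -0.07 ± 0.026, adjusted p = 0.028), except without *Creb3l1* shRNA replicate 2. The summed beta tubulin count overlapped between the lines, at 54250 ± 745 and 52650 ± 1530. The plot of shares shows the opposite shifts of *Tubb5* and *Tubb4b* as the largest of either class.

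**Figure D3:**
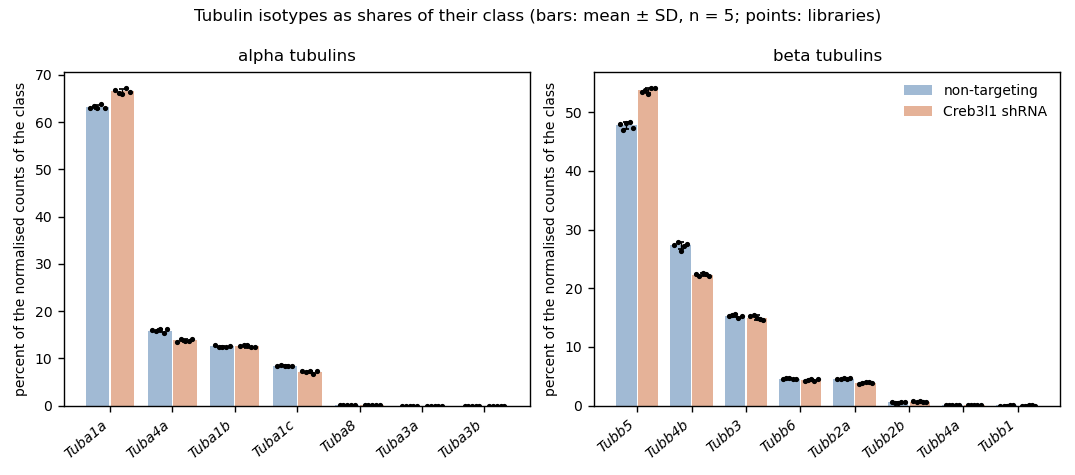
Each alpha (left) and beta (right) tubulin gene as a percent of the normalised counts of its class, in the non-targeting (blue) and *Creb3l1* shRNA (orange) lines; bars are means ± SD of 5 libraries and points are libraries. *Tubb5* rose from 47.7% to 53.7% of its class and *Tubb4b* fell from 27.3% to 22.3%, while *Tubb3* was at 15.3% and 15.0%.

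The smaller beta tubulins were *Tubb2a*, *Tubb2b* and *Tubb6*. *Tubb2a* had 2383, 2453, 2515, 2464 and 2500 normalised counts in the non-targeting libraries and 1936, 2148, 2107, 2128 and 1956 in the *Creb3l1* shRNA libraries, all of them lower (log2 fold change -0.26 ± 0.033, adjusted p = 7.9e-09). With offsets for GC content and length the value of *Tubb2a* was -0.16, still called. Its neighbour on chromosome 13, *Tubb2b*, a close copy linked to the developing brain, was higher, at 293.3 ± 16.8 and 341.9 ± 22.5 (log2 fold change 0.22 ± 0.068, adjusted p = 0.0065), so this adjacent pair was called in opposite directions. The call of *Tubb2b* was lost in DESeq2 and when any 1 of 6 libraries was left out, and reads of such close copies could have been split by the counting. *Tubb6* fell from 2480 ± 48.9 to 2295 ± 105.7 (log2 fold change -0.11 ± 0.032, adjusted p = 0.0030), but its libraries overlapped, and its call was lost with library totals as the scale, with offsets for GC content and length, and without *Creb3l1* shRNA replicate 1 or 4.

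Promoters of 3 beta tubulins are shown because these genes moved apart, *Tubb2a* and *Tubb4b* down and *Tubb5* up. Each is the RefSeq window from 250 bases before to 50 bases after the annotated start (GRCm38.p6), written 5′ to 3′ on the strand of the gene. Capitals mark TGACG, the core of the cyclic AMP response element that CREB family factors bind, on either strand.
Tubb2a, chr13:34077959-34078258, minus strand: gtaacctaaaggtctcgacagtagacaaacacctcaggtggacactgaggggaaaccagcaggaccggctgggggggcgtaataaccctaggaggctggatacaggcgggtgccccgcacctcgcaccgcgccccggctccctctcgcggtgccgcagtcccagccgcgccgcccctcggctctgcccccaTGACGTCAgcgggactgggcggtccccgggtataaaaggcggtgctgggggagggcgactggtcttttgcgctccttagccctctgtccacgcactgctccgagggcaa
Tubb4b, chr2:25224653-25224952, minus strand: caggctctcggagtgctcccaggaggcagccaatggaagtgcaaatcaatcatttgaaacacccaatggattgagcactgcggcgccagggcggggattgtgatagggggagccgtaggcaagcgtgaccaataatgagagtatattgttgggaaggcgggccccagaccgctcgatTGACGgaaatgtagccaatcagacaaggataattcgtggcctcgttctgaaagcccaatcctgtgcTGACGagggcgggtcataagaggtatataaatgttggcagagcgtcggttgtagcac
Tubb5, chr17:35838252-35838551, minus strand: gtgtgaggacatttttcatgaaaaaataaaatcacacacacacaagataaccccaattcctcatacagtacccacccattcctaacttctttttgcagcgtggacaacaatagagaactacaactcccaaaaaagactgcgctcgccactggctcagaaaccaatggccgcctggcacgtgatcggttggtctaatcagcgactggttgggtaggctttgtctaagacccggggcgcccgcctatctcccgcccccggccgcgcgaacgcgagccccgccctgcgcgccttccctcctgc
The *Tubb2a* window held the full palindrome TGACGTCA with its first base 59 bases before the start, the *Tubb4b* window held TGACG 73 and 7 bases before the start, and the *Tubb5* window held neither. The *Tubb5* window did hold CACGTG, a word also within the G-box that the paper gives for the vasopressin promoter. CACGTG was not among the words searched for.

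Gamma tubulin was not called. *Tubg1*, which nucleates microtubules, had 5344 ± 91.7 and 5119 ± 193 normalised counts (log2 fold change -0.06 ± 0.027, adjusted p = 0.055), and *Tubg2*, its second gene, had 760 ± 29.3 and 797.8 ± 43.2 (log2 fold change 0.07 ± 0.044, adjusted p = 0.20). *Tubg1* gave 87.6 ± 0.35% of the gamma tubulin counts in the non-targeting line and 86.5 ± 0.40% in the *Creb3l1* shRNA line, a small difference with no overlap. With offsets for GC content and length *Tubg2* was called higher (log2 fold change 0.17, adjusted p = 0.00063), and *Tubg1* turned positive (0.04) and was not called.

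Cytoplasmic dynein 1 carries most cargo towards the cell centre. Of its 5 subunit genes 2 were called, both higher: *Dync1h1*, the heavy chain that holds the motor, and *Dync1i2*, an intermediate chain that links the motor to dynactin. *Dync1h1* had 20490, 20310, 19310, 18630 and 19880 normalised counts in the non-targeting libraries and 22360, 23870, 22360, 21340 and 22050 in the *Creb3l1* shRNA libraries. Every *Creb3l1* shRNA library was above every control (log2 fold change 0.18 ± 0.028, adjusted p = 7.8e-06). With offsets for GC content and length the value was 0.08, still called. *Dync1i2* rose from 3450 ± 71.3 to 3843 ± 86.9 (log2 fold change 0.16 ± 0.027, adjusted p = 5.1e-06). The intermediate chain *Dync1i1* and the light intermediate chains *Dync1li1* and *Dync1li2* were not called, with log2 fold changes of -0.06, 0.05 and -0.01. The summed dynein 1 count went from 26920 ± 689 to 30030 ± 881 with no overlap.

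Dynein 2, the motor of retrograde transport within cilia, was not called in either subunit. *Dync2li1*, its light intermediate chain, had 795.8 ± 29.0 and 770 ± 12.6 normalised counts (log2 fold change -0.05 ± 0.041, adjusted p = 0.35). *Dync2h1*, its heavy chain, had 2074, 2081, 2080, 1920 and 2248 in the non-targeting libraries and 2328, 1244, 2247, 2092 and 2232 in the *Creb3l1* shRNA libraries. *Creb3l1* shRNA replicate 2 alone was far below all other libraries, and the log2 fold change was -0.03 ± 0.16 (adjusted p = 0.88). The same library was the lowest of the 10 for 4 of the 13 mitotic kinesins. These were *Kif20b* (666.8, others of the line 1167 to 1396), *Kif18a* (361.7, others 497.4 to 550.7), *Kif11* (2587, others 2876 to 3155) and *Kif15* (849.8, others 890.7 to 915.9). *Creb3l1* shRNA replicate 1 was likewise the lowest for 4 of the 13. The exons of *Dync2h1*, *Kif20b*, *Kif18a*, *Kif11* and *Kif15* had a GC content between 38.2% and 43.4%, against a median of 49.8% over all genes tested. These genes were picked for their low values in this library. Of the other members in that GC range, *Dctn4* (41.1%) was also lowest of its line there, at 1873. *Kif2a* (38.6%), *Dync1i2* (40.9%) and *Kif5b* (41.1%) were not, at 1844, 3821 and 6461. The part of base composition in *Creb3l1* shRNA replicate 2 was not tested.

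Dynactin, the complex that makes dynein processive, had no called gene among 6. *Dctn1*, the p150Glued subunit that binds both microtubules and dynein, had 4329 ± 44.3 and 4529 ± 219 normalised counts (log2 fold change 0.07 ± 0.029, adjusted p = 0.057). *Dctn3*, the small shoulder subunit and the dynactin gene with the highest level, had 1466 ± 43.5 and 1428 ± 48.7 (log2 fold change -0.04 ± 0.034, adjusted p = 0.40). The log2 fold changes of the 6 genes lay between -0.11 (*Dctn6*) and 0.07 (*Dctn1*), and the summed count was 14060 ± 123 and 14110 ± 115. Such a p does not show that dynactin was the same in the 2 lines. With offsets for GC content and length *Dctn1* was called higher (0.09) and *Dctn4* lower (-0.13), and without non-targeting replicate 1 *Dctn6* was called lower.

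Kinesin-1 moves mitochondria, granules and many other cargoes outwards, with 2 heavy chains (Kif5) and, for many cargoes, 2 light chains (Klc). Of its 7 genes 4 were called, beside 40.7% of all genes tested: *Klc1*, *Klc2* and *Kif5a* higher and *Klc3* lower. *Klc1*, which has the highest level of the group, had 5807, 5883, 5826, 5688 and 5842 normalised counts in the non-targeting libraries and 6396, 6576, 6772, 6597 and 6451 in the *Creb3l1* shRNA libraries, with no overlap (log2 fold change 0.18 ± 0.025, adjusted p = 1.6e-07). *Klc3*, a light chain best known from sperm, had 313.8, 319.0, 310.5, 322.1 and 309.3 in the non-targeting libraries and 255.4, 281.5, 254.2, 261.5 and 226.3 in the *Creb3l1* shRNA libraries. All were lower (log2 fold change -0.30 ± 0.070, adjusted p = 0.00034). *Klc2* rose from 643.3 ± 41.1 to 754.3 ± 27.6 (log2 fold change 0.23 ± 0.046, adjusted p = 6.7e-05), and *Kif5a*, a heavy chain of neurons, from 2215 ± 87.5 to 2462 ± 65.5 (0.15 ± 0.032, adjusted p = 9.6e-05).

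*Kif5b*, the heavy chain found in nearly all tissues, had 6573, 6802, 6905, 6789 and 7028 normalised counts in the non-targeting libraries and 7520, 6461, 7220, 6391 and 7030 in the *Creb3l1* shRNA libraries. These ranges overlapped and the gene was not called (log2 fold change 0.02 ± 0.039, adjusted p = 0.68). With offsets for GC content and length it was called in the other direction, lower (log2 fold change -0.08, adjusted p = 0.0072), and without *Creb3l1* shRNA replicate 1 its value was -0.01. *Kif5c* was not called either (log2 fold change 0.06 ± 0.026, adjusted p = 0.072).

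Kinesin-2 motors work in cilia and in organelle transport. Of 4 genes 2 were called, *Kif17* lower and *Kif3c* higher. *Kif17*, which acts as a pair of identical chains in dendrites and cilia, had 229.3, 258.6, 232.3, 245.1 and 229.1 normalised counts in the non-targeting libraries and 159.9, 202.3, 156.4, 163.9 and 151.8 in the *Creb3l1* shRNA libraries. *Creb3l1* shRNA replicate 2 lay nearer to the controls than the other 4, and still below all of them. The log2 fold change was -0.52 ± 0.084 (adjusted p = 1.5e-06). *Kif3a* and *Kif3b*, which form the common heterotrimer with *Kifap3*, were not called (0.07 ± 0.035 and 0.07 ± 0.031, adjusted p = 0.075 and 0.082), and *Kif3c* rose from 1385 ± 41.9 to 1512 ± 44.6 (0.13 ± 0.034, adjusted p = 0.0020), a call that was lost with offsets for GC content and length.

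The *Kif17* promoter is shown because this gene had the largest called change of the kinesin-1, kinesin-2 and kinesin-3 families, and capitals again mark TGACG on either strand.
Kif17, chr4:138262001-138262300, plus strand: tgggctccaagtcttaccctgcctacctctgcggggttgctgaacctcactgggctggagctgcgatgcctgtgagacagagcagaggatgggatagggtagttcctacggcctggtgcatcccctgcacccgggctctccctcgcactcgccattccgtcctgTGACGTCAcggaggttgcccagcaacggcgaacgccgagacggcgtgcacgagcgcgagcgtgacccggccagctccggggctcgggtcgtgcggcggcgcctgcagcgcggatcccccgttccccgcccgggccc
The RefSeq start lies inside the longer GENCODE gene (138250435 to 138301967). The window held the palindrome TGACGTCA with its first base 86 bases before that start.

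Kinesin-3 includes the motors of dense core granules. Of 7 genes 6 were tested and 3 called, all higher: *Kif1c*, *Kif13b* and *Kif1b*. *Kif1a*, the long-distance carrier of dense core granules and synaptic vesicle precursors, had 14460, 14640, 14060, 13700 and 14210 normalised counts in the non-targeting libraries and 13840, 14230, 13850, 13150 and 13550 in the *Creb3l1* shRNA libraries. The groups overlapped and the log2 fold change was -0.05 ± 0.023 (adjusted p = 0.061); with offsets for GC content and length it was -0.11 and called. *Kif1c*, also linked to granule transport, had 482.8, 474.7, 419.3, 486.4 and 505.4 in the non-targeting libraries and 628.4, 670.0, 593.6, 566.6 and 593.4 in the *Creb3l1* shRNA libraries. Every *Creb3l1* shRNA library was higher (log2 fold change 0.36 ± 0.055, adjusted p = 4.8e-07).

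*Kif13b*, a carrier of signalling receptors, rose from 452.5 ± 11.6 to 538 ± 38.6 (log2 fold change 0.25 ± 0.055, adjusted p = 0.00023). *Kif1b*, which moves mitochondria and synaptic vesicle precursors, rose from 7637 ± 218 to 8203 ± 235 (log2 fold change 0.10 ± 0.025, adjusted p = 0.00071), but with offsets for GC content and length its value was -0.01 and not called, so its direction depended on that choice. *Kif13a* and *Kif16b*, motors of endosomes, were not called (-0.04 and -0.05). The related *Kif1bp*, a binding partner of kinesins, had 2092 ± 27.7 and 2101 ± 38.1 normalised counts (log2 fold change 0.01 ± 0.030, adjusted p = 0.88).

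Of the 13 mitotic kinesins 2 were called, both lower, beside 40.7% of all genes tested. This count depended on the processing: with offsets for GC content and length 6 were called, all lower, with *Kif11* (log2 fold change -0.09), *Kif14* (-0.20), *Kif18a* (-0.25) and *Kif4* (-0.10) gained. *Kif2c*, which takes microtubules apart at kinetochores, had 1697, 1659, 1732, 1630 and 1644 normalised counts in the non-targeting libraries and 1398, 1519, 1453, 1464 and 1405 in the *Creb3l1* shRNA libraries, with no overlap (log2 fold change -0.21 ± 0.033, adjusted p = 1.2e-06). *Kif2a*, which also takes microtubules apart, was counted with the remaining kinesins below and was called higher (log2 fold change 0.23), so the downward calls depend on this grouping. *Kif15*, which helps to hold the spindle poles apart, fell from 996.1 ± 37.2 to 892.4 ± 25.5 (log2 fold change -0.16 ± 0.040, adjusted p = 0.00087). *Kif20a*, a cytokinesis motor with the highest level of the group, had 2979 ± 76.1 and 2988 ± 108.2 (log2 fold change 0.00 ± 0.029, adjusted p = 0.93), with a sign that turned without *Creb3l1* shRNA replicate 2 or non-targeting replicate 2 or 3. *Kif11*, the bipolar motor that separates the poles, had 2970 ± 54.8 and 2908 ± 207 (log2 fold change -0.03 ± 0.037, adjusted p = 0.53), while with the offsets it was called lower (adjusted p = 0.0029). The other log2 fold changes lay between -0.13 (*Kif20b*) and 0.01 (*Kif23*). *Kifc1* and *Kifc5b* are near-identical, so their separate values are uncertain. The summed count of the group went from 21380 ± 192 to 20600 ± 425 with no overlap. Of 24 mitotic genes that are not kinesins, 8 were called, all lower, with a median log2 fold change of -0.09, and with offsets for GC content and length 11 were lower and 1 higher. *Creb3l1* shRNA replicate 2 was the lowest of the 10 libraries for 10 of these 24 genes. In that library the proliferation marker *Mki67* was at 12400 normalised counts (others of the line 22630 to 24840), and *Cenpf* and *Cenpe*, which act at kinetochores, were at 1478 (others 3039 to 3634) and 960 (others 1712 to 2062), none of them called; these 3 genes were chosen after their values were seen. Without this library 9 of the 24 were called, all lower. Among the 8 called with all 10 libraries were *Ttk*, a spindle checkpoint kinase (log2 fold change -0.22 ± 0.053, adjusted p = 0.0019), and *Ccnb1*, the mitotic cyclin B1 (-0.21 ± 0.032, adjusted p = 8.6e-07). The call of *Ttk* was lost with the replicate block (adjusted p = 0.063) and without non-targeting replicate 3 (0.011).

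The remaining kinesins, a mixed group that includes ciliary, atypical and minus-end motors and *Kif2a*, held all 5 changes of at least 1.5-fold. Of 15 genes 12 were tested and 9 called (75%), 4 higher and 5 lower, beside 40.7% of all genes tested. In DESeq2 7 were called, and with offsets for GC content and length 10. With 1 library left out the count was between 6 and 8. Their summed count rose from 7071 ± 159 to 10400 ± 127, and *Kif26a* alone went from 345.2 to 4526.

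*Kif26a* is an atypical kinesin that binds microtubules without walking along them and is known for its part in the development of the enteric nervous system. It lies on chromosome 12 from 112146208 to 112181747 (plus strand). It had 359.1, 348.6, 315.4, 340.8 and 362.1 normalised counts in the non-targeting libraries and 4304, 4681, 4558, 4542 and 4545 in the *Creb3l1* shRNA libraries. The lines were far apart and each was narrow, with a 13.1-fold difference (log2 fold change 3.71 ± 0.038, adjusted p = 1.2e-44). The value stayed between 3.66 and 3.73 under all 18 alternatives. Its closest relative *Kif26b* moved the other way, from 151.5 ± 13.4 to 119.9 ± 10.6 (log2 fold change -0.34 ± 0.096, adjusted p = 0.0034), although that call was lost without *Creb3l1* shRNA replicate 4 or non-targeting replicate 1 or 2.

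The genes around *Kif26a* were looked at after its value was seen. Of 10 annotated genes of the table within 200 kb, 4 were tested. *Aspg*, which encodes an asparaginase and lies 18.6 kb upstream on the same strand, rose from 10.5 ± 6.45 to 35.0 ± 9.95 normalised counts (log2 fold change 1.79 ± 0.28, adjusted p = 1.4e-06). *Tdrd9*, at 77.4 kb, was not called (20.2 ± 4.52 and 21.6 ± 6.75), and *Atp5mpl*, at 179 kb, was lower (log2 fold change -0.22 ± 0.035, adjusted p = 1.7e-06). The promoter of *Kif26a* is shown because this gene had the largest change of all 70.
Kif26a, chr12:112145958-112146257, plus strand: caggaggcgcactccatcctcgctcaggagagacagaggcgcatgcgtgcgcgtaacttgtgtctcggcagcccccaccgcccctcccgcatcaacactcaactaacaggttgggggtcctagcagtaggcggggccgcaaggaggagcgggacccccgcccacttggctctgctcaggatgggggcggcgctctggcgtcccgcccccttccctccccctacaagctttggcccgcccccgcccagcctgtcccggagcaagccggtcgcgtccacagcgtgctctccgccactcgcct
This window had a GC content of 69.7% and held no TGACG on either strand.

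*Kif19a* shortens the tips of motile cilia by taking microtubules apart. It had 1659, 1529, 1616, 1552 and 1520 normalised counts in the non-targeting libraries and 633.0, 635.7, 744.6, 729.6 and 651.6 in the *Creb3l1* shRNA libraries. The highest *Creb3l1* shRNA library was below the lowest control, and the level was 2.32-fold lower (log2 fold change -1.22 ± 0.043, adjusted p = 7.3e-25). The gene lies on chromosome 11 from 114765388 to 114790739 (plus strand). Of 7 tested genes within 200 kb, also looked at after the value was seen, 5 were lower and 1 was higher, beside 20.1% lower and 20.6% higher over all genes tested. With so few genes, chosen by their place, this count was not tested. Among the lower ones were *Dnaic2*, an axonemal dynein chain 7.5 kb upstream (log2 fold change -0.65 ± 0.078, adjusted p = 2.6e-09), and *Cd300lb*, an immune receptor at 132 kb that had few counts (42.7 ± 3.28 and 10.4 ± 2.87, log2 fold change -2.03 ± 0.23, adjusted p = 5.9e-10). The other lower ones fell by less, *Rpl38* (-0.20), *Ttyh2* (-0.40) and *Gprc5c* (-0.17), and the higher one was *Gpr142* (0.23). *Btbd17*, 478 bases from the end of *Kif19a* on the other strand, was not called (log2 fold change 0.05 ± 0.031, adjusted p = 0.22).

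*Kif12* and *Kifc2* were the other kinesins that fell by at least 1.5-fold, both from low levels. *Kif12*, known from epithelia and pancreatic islets, had 163.9, 137.8, 189.5, 170.0 and 212.2 normalised counts in the non-targeting libraries and 89.1, 92.0, 104.2, 93.8 and 130.0 in the *Creb3l1* shRNA libraries. *Creb3l1* shRNA replicate 5 came close to the lowest control without reaching it (log2 fold change -0.78 ± 0.11, adjusted p = 5.2e-07). *Kifc2*, a minus-end directed motor described in neurons, had 73.4, 72.1, 91.7, 67.6 and 77.3 in the non-targeting libraries and 40.4, 54.6, 42.6, 49.3 and 30.9 in the *Creb3l1* shRNA libraries. No library overlapped (log2 fold change -0.81 ± 0.15, adjusted p = 1.7e-05). Both kept their call under all 18 alternatives.

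*Kif27*, a motor of motile cilia, was the least abundant gene tested among these kinesins. It had 11.1, 14.8, 4.89, 11.3 and 17.9 normalised counts in the non-targeting libraries and 23.0, 23.6, 24.5, 17.1 and 23.6 in the *Creb3l1* shRNA libraries. The lowest *Creb3l1* shRNA library fell within the controls, and the log2 fold change of 0.86 ± 0.27 (adjusted p = 0.0073) was not called in DESeq2, without a filter on low counts, or when any 1 of 7 libraries was left out. *Kif2a*, which takes microtubules apart from their ends, rose from 1578 ± 49.0 to 1847 ± 25.4 (log2 fold change 0.23 ± 0.031, adjusted p = 6.8e-08). *Kifc3*, a minus-end directed motor of epithelia, rose from 205.1 ± 14.8 to 249 ± 21.4 (0.28 ± 0.080, adjusted p = 0.0035), with 1 *Creb3l1* shRNA library inside the range of the controls, and its call was lost when any 1 of 4 libraries was left out. *Kif24*, which acts at the mother centriole, fell from 803 ± 48.7 to 725.6 ± 20.3 (-0.15 ± 0.045, adjusted p = 0.0059), with non-targeting replicate 4 inside the range of the knockdown and a call lost in most fits that left out a library. *Kif9*, *Kif21a* and *Kif21b* were not called, with log2 fold changes of -0.03, -0.04 and -0.09, and *Kif21a* was called lower with offsets for GC content and length (-0.13, adjusted p = 0.00031). The plot of counts by library shows how narrow each line was beside the gap for *Kif26a* and *Kif19a*, and how *Kif5b* overlapped.

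**Figure D4:**
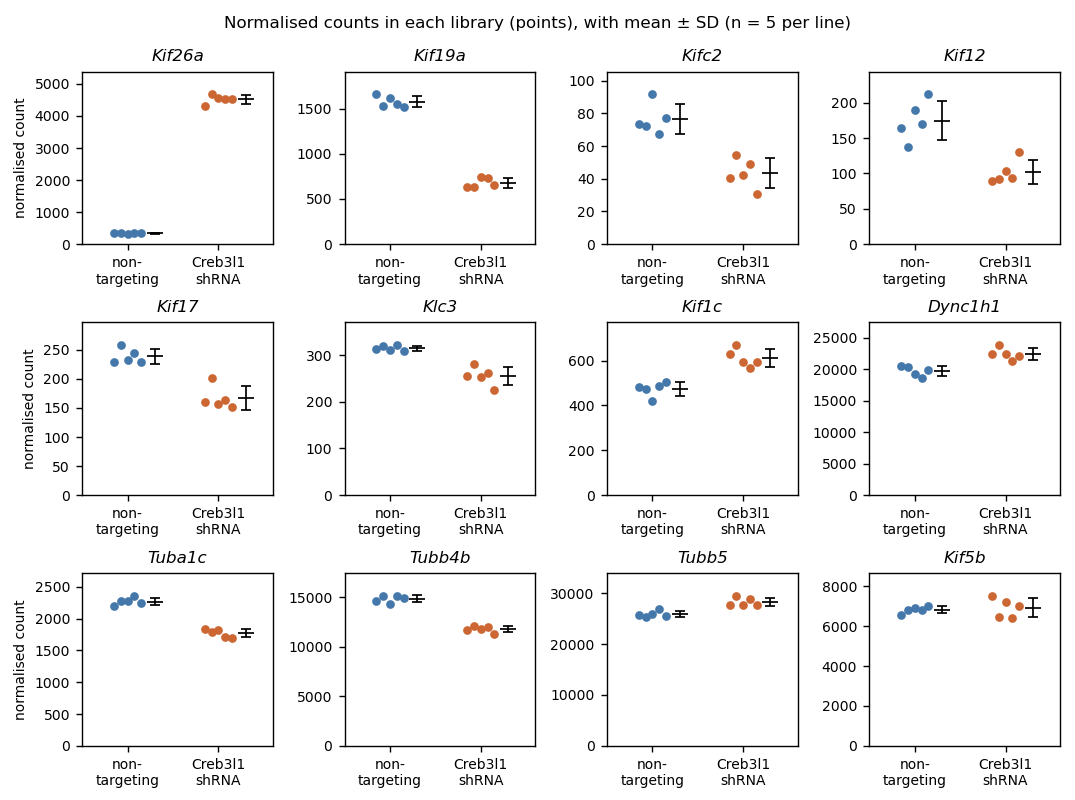
Normalised counts (linear axes from 0) in each of 5 non-targeting (blue) and 5 *Creb3l1* shRNA (orange) libraries for 12 genes, with the mean ± SD in black. The lines do not overlap for 11 of these genes, with *Kif26a* rising from 345.2 to 4526 and *Kif19a* falling from 1575 to 678.9, and they overlap for *Kif5b*.

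Words bound by CREB family factors were found in promoter windows of genes called higher, called lower and not called. RefSeq windows were matched by symbol to 60 of the 78 genes (66 windows), and both strands were searched. The word TGACG was in 40.7% of 59 windows of tested members and in 30.8% of 13311 windows of all genes tested. Within the members it was in 6 of 12 windows of genes called lower, 5 of 13 of genes called higher and 13 of 34 of genes not called. The palindrome TGACGTCA, which contains TGACG, was in 6 windows, those of *Dctn3*, *Kif17*, *Kif18a*, *Kif5c*, *Klc1* and *Tubb2a*, or 10.2% of the windows of tested members, against 3.13% of the windows of all genes tested. Of these 6 genes 2 were called lower, 1 higher and 3 not called. The G-box core GACGTG was in 4 of the 59 windows (6.78%) and in 9.26% of the windows of all genes tested. The 4 were those of *Kif18a*, *Kif21a*, *Kif22* and *Tubb4a*, none of them called. With offsets for GC content and length *Kif18a* (log2 fold change -0.25) and *Kif21a* (-0.13) were called lower.

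The partners of these motors and tubulins were examined in 8 lists that were chosen with earlier results known. Between 33.3% and 55.2% of the tested genes of each list were called, beside 40.7% of all genes tested. Over all genes tested 20.6% were higher and 20.1% lower. The median absolute log2 fold change was largest in the axonemal dyneins (0.33) and in tubulin folding and modification (0.23), against 0.15 over all genes tested. Only 6 genes of the lists were called with at least 1.5-fold, *Dnali1*, *Dnaic2*, *Bicdl2*, *Spast*, *Vash2* and *Tppp3*. They were 2 of 10 tested axonemal dyneins, 1 of 29 adaptors, 1 of 9 severing enzymes and relatives, and 2 of 28 genes of tubulin folding and modification. No tested gene of the remaining lists reached this limit, which 7.73% of all genes tested did. Among 29 tested adaptors that join cargo to dynein or kinesin, 9 were higher and 3 lower, with a median log2 fold change of 0.00. With offsets for GC content and length 8 adaptors were higher and 7 lower. *Mapk8ip3*, which links kinesin-1 and dynein to vesicles, rose from 2615 ± 48.4 to 3255 ± 123 normalised counts (log2 fold change 0.32 ± 0.029, adjusted p = 4.7e-12), and *Bicdl2*, a dynein adaptor, fell from 54.3 ± 8.16 to 32.0 ± 6.32 (-0.76 ± 0.17, adjusted p = 0.00024). Of 8 dynein light chains 3 were lower and none higher (median -0.10; 3 lower and 2 higher with offsets for GC content and length), with *Dynlt1a* at -0.28 ± 0.055 (adjusted p = 4e-05) and *Dynlt1f* at -0.22 ± 0.052 (adjusted p = 0.00059). These 2 are close copies of each other, and their separate values are uncertain. Of 10 tested axonemal dyneins, the motors of ciliary beating, 4 were lower and 1 higher (median -0.08), and the higher call was lost in DESeq2, with the offsets and without *Creb3l1* shRNA replicate 1 or 4 or non-targeting replicate 4. The largest falls were *Dnali1* (-0.96 ± 0.15, adjusted p = 1.3e-06) and *Dnaic2*, given above as a neighbour of *Kif19a*.

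Of 19 genes of the gamma tubulin ring complex and its anchors, 5 were higher and 3 lower (median log2 fold change -0.01). *Tubgcp4*, a ring subunit, was higher at 0.29 ± 0.033 (adjusted p = 1.3e-09), and *Mzt2*, a small ring component, was lower at -0.24 ± 0.053 (adjusted p = 0.00016), a call lost with offsets for GC content and length. Of 9 severing enzymes and relatives 3 were higher and 1 lower (median 0.17). *Spast*, the severing enzyme spastin, rose from 819.2 ± 28.4 to 1234 ± 55.2 (0.59 ± 0.040, adjusted p = 4e-16), and *Katnal1*, a katanin relative, was higher at 0.27 ± 0.034 (adjusted p = 1.3e-08). Among 29 microtubule-associated proteins 10 were higher and 6 lower (median 0.01). With offsets for GC content and length 9 of them were higher and 10 lower. *Map2*, the dendritic stabiliser, was higher at 0.34 ± 0.036 (adjusted p = 1e-08) and *Camsap1*, which binds minus ends, at 0.34 ± 0.027 (adjusted p = 1.1e-13).

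Of 28 genes of tubulin folding and modification 6 were higher and 8 lower (median log2 fold change -0.04). *Vash2*, which removes the final tyrosine of alpha tubulin, rose from 211.1 ± 25.5 to 355 ± 16.1 normalised counts (0.75 ± 0.075, adjusted p = 4.1e-11), and *Tppp3*, a tubulin polymerisation factor, fell from 318 ± 31.2 to 205 ± 7.48 (-0.64 ± 0.075, adjusted p = 2.6e-09). The plot of the 8 lists shows calls in both directions in 6 of them, and calls downwards alone in the dynein light chains and the mitotic genes, which had 2 and 1 calls upwards with offsets for GC content and length.

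**Figure D5:**
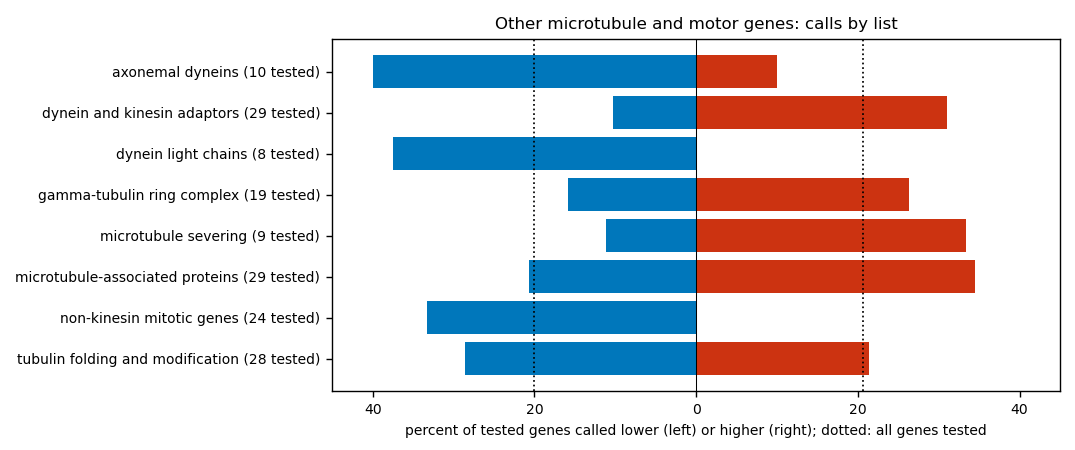
Percent of the tested genes of each list called lower (left, blue) or higher (right, red) at an adjusted p under 0.01; dotted lines mark the shares over all genes tested, 20.1% lower and 20.6% higher. The dynein light chains (8 tested) and the mitotic genes other than kinesins (24 tested) have no bar on the right; with offsets for GC content and length they had 2 and 1 calls there.

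Of the 78 genes, 8 were not tested. *Tuba3b*, *Kif2b* and *Kif6* had no count in any library, which at this depth allows up to 3 counts over all 10 libraries, or 0.0148 CPM, and covers counting error only. *Tuba3a*, *Tubb1*, *Kif7* and *Kif28* had at most 7 counts in any library, and the antisense RNA *Kif16bos* at most 13. Over the 78 genes together, the normalised counts summed to 211500 ± 317 in the non-targeting line and 215000 ± 3130 in the *Creb3l1* shRNA line, or 1.04% and 1.06% of all counts, with overlap.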

How the data were processed

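RNA of AtT20/D16v-F2 cells was measured in 10 libraries, 5 per line, and groups were taken from the genotype given in the labels. The authors made stranded poly(A) libraries, sequenced them in pairs, mapped the reads to GRCm38 (STAR) and summed them over the genes of an Ensembl annotation (featureCounts). The authors deposited these counts as whole numbers without normalisation. Symbols, exons and coordinates came from GENCODE M21 (also GRCm38) and were found for 53706 of the 53801 identifiers.

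Counts were filtered with filterByExpr, scaled with TMM factors and tested in edgeR 4.0.16 (R 4.3.3) with a robust quasi-likelihood fit and no covariate, with an adjusted p under 0.01 as in the study. Each standard error was derived from a gene's log2 fold change and F. The fit was checked on simulated counts. Named genes were the members with a call of at least 1.5-fold and a mean of at least 50 normalised counts, the member with the highest level and the called member with the largest change in each group, 11 set members, and the called genes with the 2 largest changes in each list. Genes that a small count singles out were named as well. The members, groups and lists were chosen with earlier results of these data known. Alternatives were DESeq2 1.42.0, RLE factors, library totals, other filters, offsets for GC content and length, a block for the last digit of the sample title, each library left out, a fit without the robust estimate (chosen after seeing the data), and other thresholds. Libraries that share a digit had deviations with a correlation between -0.0647 and 0.0401, so the digit was not used to pair them. Comparisons made by the study in tissue and by other assays were not analysed here.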

Additional observations from a re-analysis of the deposited data

Results flagged for a closer look

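In each group of 5 libraries, the library at either end was compared with its nearest neighbour, for 71 genes (the 70 tested and *Creb3l1*) in both lines. A gap large for the range of the group stood out in 7 of 142 groups, about the 7.1 that chance gives. Of these, 4 were in *Creb3l1* shRNA replicate 2: *Dync2h1* at 1244 normalised counts (others 2092 to 2328), *Kif18a* at 361.7 (others 497.4 to 550.7), *Kif17* at 202.3 (others 151.8 to 163.9) and *Kif20a* at 3174 (others 2924 to 2991). In *Creb3l1* shRNA replicate 4, *Dync1i2* was at 3997 (others 3785 to 3821) and *Kif27* at 17.1 (others 23.0 to 24.5). In non-targeting replicate 4, *Kif24* was at 718.3 (others 811.7 to 839.9).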

How the results depend on the processing

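The number of genes called was 30 as reported and between 25 and 36 under all alternatives at a threshold of 0.01 without a fold limit. It was 27 in DESeq2, 36 with offsets for GC content and length (26 of the 30 calls kept their direction, 4 were lost and 10 were gained), 30 with the replicate block, which changed no call among the members and lost that of *Ttk*, and between 25 and 29 with 1 library left out. The same-digit libraries did not deviate together, so they were not paired. With at least 1.5-fold the count was 5, of which 2 were higher and 3 lower. The 10 gained with the offsets were *Dctn1* and *Tubg2*, higher, and *Dctn4*, *Kif5b*, *Kif1a*, *Kif11*, *Kif14*, *Kif18a*, *Kif4* and *Kif21a*, lower, so the mitotic kinesins had 6 calls in place of 2, and the dynein light chains 5 in place of 3. Without *Creb3l1* shRNA replicate 1 or 4, 3 beta tubulins were called in place of 5. Among the genes named by the rule, the offsets also turned the sign of *Tuba1a* (0.039), *Dync2li1* (0.020), *Dctn3* (0.095), *Tubg1* (0.037), *Kif5b* (-0.077) and *Kif1b* (-0.014), all log2 fold changes. Among the other members they turned that of *Tubb3* (0.030), *Kif5c* (-0.031), *Kifc1* (0.012) and *Kif18b* (-0.000 to 0.049). With 1 library left out, the value of *Kif20a* was between -0.017 and 0.015, that of *Kif5b* between -0.009 and 0.050, and that of *Kif11* between -0.060 and 0.012. The causes were not tested. Genes under about 100 normalised counts, such as *Kif27*, had wide errors at this depth.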
